A study of Arabidopsis thaliana with 12 samples.

Results

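Xyloglucan is the polysaccharide that coats and tethers cellulose in the growing wall of *Arabidopsis thaliana*, and 6 genes that build it or cut and rejoin it are described here in seedlings with and without a night. They are the xyloglucan endotransglucosylase/hydrolase genes *XTH8* (AT1G11545), *XTH15* (AT4G14130), *XTH30* (AT1G32170), *XTH32* (AT2G36870) and *XTH33* (AT1G10550), and the glucan synthase gene *CSLC4* (AT3G28180). They were taken by locus, as 6 of the 38113 probe sets tested on the array. The platform annotation names *XTH32*, *XTH33* and *CSLC4*, whereas *XTH8*, *XTH15* and *XTH30* could be matched to a probe set only through the study's own list of regulated genes.

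The study grew wild-type (WT, Col-0) and *pifq* seedlings, whole and 3 days old at harvest, on medium without sucrose. The *pifq* mutant carries mutations in 4 PHYTOCHROME-INTERACTING FACTOR genes, *PIF1*, *PIF3*, *PIF4* and *PIF5*, in every cell of the plant. All seedlings spent 2 days in short days (SD) of 8 h of white light at 85 µmol per m2 per s and 16 h of darkness, and for the additional day either stayed in SD or moved to continuous white light (LL). RNA was taken at 24 h of the last day, that is, before the lights came on in SD and at the same clock time in LL, from 3 samples per genotype and light regime, labelled as biological replicates and called WT SD, *pifq* SD, WT LL and *pifq* LL below.

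Xyloglucan has a glucan backbone, made by synthases of the CSLC family in the Golgi, to which xylose, galactose and fucose are added before export to the wall. XTH enzymes cut a xyloglucan chain in the wall and join the new end to another chain, or to water, and glycosidases then trim the side chains. XTH genes are known for their activity in elongating organs such as the hypocotyl, and *XTH15*, also called *XTR7*, is a long-used marker of shade and PIF action. The PIF proteins are transcription factors that light removes through the phytochromes, and they accumulate during long nights.

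Values are RMA log2 signals as deposited, so that a difference of 1 is a factor of 2. Array medians lay between 5.0009 and 5.1246. A gene was called where limma gave a Benjamini-Hochberg adjusted p under 0.05 over all probe sets and a change of at least 1.5 fold, the study's own SS1.5F rule (statistically significant, 1.5 fold) with another test. *PIF1*, *PIF3* and *PIF5* fell in *pifq*. In this order, their log2 FC were -1.61, -4.06 and -3.74 in SD and -2.02, -3.40 and -3.39 in LL (adjusted p at most 0.00424). All 3 could be matched to a probe set only through the study's list of regulated genes. Their fall in SD is therefore not an independent check of the genotype labels. *PIF4* was not analysed here. Of 27 markers of seedling cell types, 6 had a named probe set: *CAB3* and *RCA* of the mesophyll, *EXPA7* of root hairs, *PDF1* of the shoot epidermis, and *FAMA* and *KAT1* of guard cells. *CAB3*, *PDF1* and *KAT1* could be matched to a probe set only through the study's list of regulated genes. The group means of the 6 markers lay between 5.85 and 13.17, above every array median. Markers of the inner root, the vasculature and seed reserves were not analysed here. The samples are whole seedlings, so fewer cells that express a gene and less RNA per cell cannot be told apart.

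In WT, 5 of the 6 genes were higher in SD than in LL and the sixth was lower. Between *pifq* SD and WT SD all 6 differed in the opposite direction. The *XTH32* and *XTH33* calls between genotypes were each lost without any 1 of 11 of the 12 arrays, as given below. *XTH8*, *XTH15*, *XTH30*, *XTH33* and *CSLC4* were between 1.75 and 10.9 times higher in WT SD than in WT LL, and *XTH32* was 4.36 times lower. In *pifq* SD the first 5 were between 1.86 and 9.95 times lower than in WT SD, and *XTH32* was 1.78 times higher. Across all probe sets 6.59% were called in WT SD versus WT LL (3.16% higher, 3.43% lower) and 1.48% in *pifq* SD versus WT SD (0.635% higher, 0.847% lower). The median log2 FC of the 6 genes was 1.15 in the first comparison, against -0.01 over all probe sets, and -1.23 in the second, against 0.03. All 6 genes stand in the list of regulated genes that the study drew from these same arrays, so that 6 of 6 called in both comparisons is not independent evidence. In each of the 6 genes the arrays of the compared groups did not overlap, which held for 28.2% of all probe sets in the first comparison (13.8% higher, 14.4% lower) and 15.6% in the second (8.85% higher, 6.71% lower). Both comparisons use the same 3 WT SD arrays, and their values are given side by side without a test of their likeness.

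**Figure D1:**
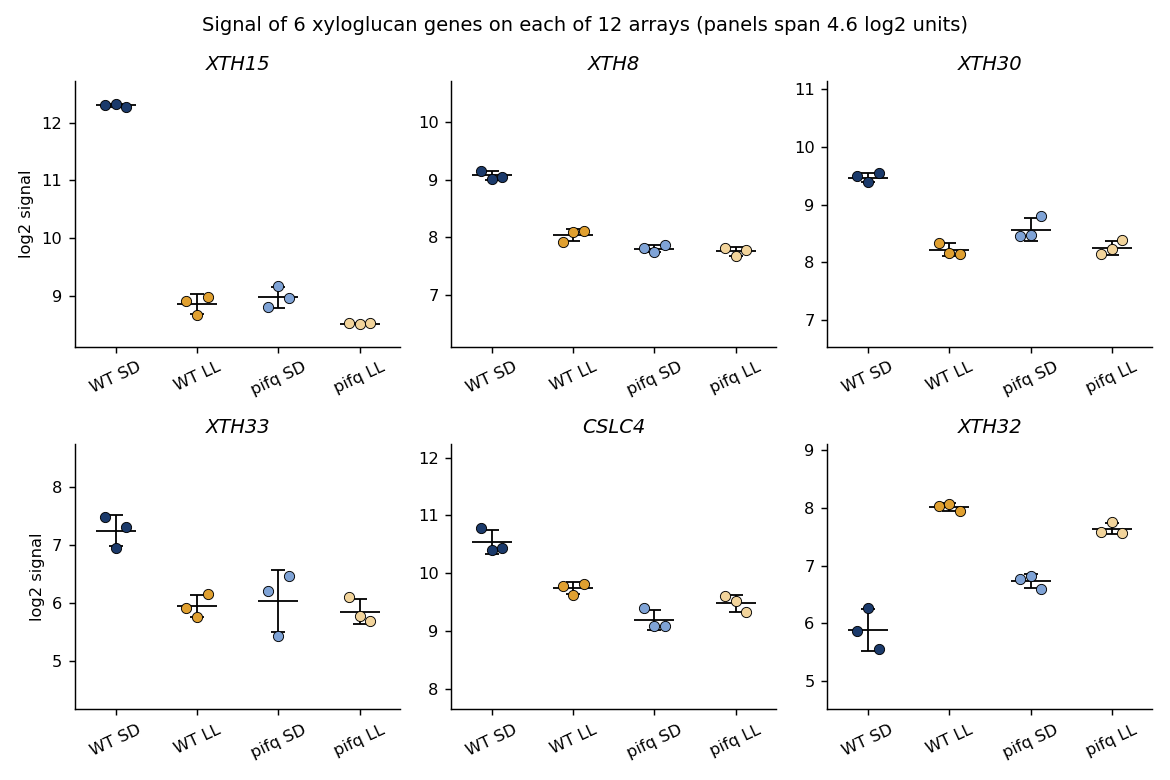
Each panel plots the log2 signal (vertical axis) of 1 gene on the 12 arrays, as points in 4 groups with bars for mean and SD (n = 3); all panels span the same number of log2 units but start at different levels. WT SD stands above the other 3 groups for 5 genes, by the most for *XTH15* (12.30 against 8.52 to 8.98), and below them for *XTH32* (5.89 against 6.73 to 8.02).

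*XTH15* showed the largest change of the 6. Its log2 signal was 12.30, 12.33 and 12.27 in WT SD and 8.91, 8.67 and 8.99 in WT LL. In *pifq* it was 8.81, 9.17 and 8.97 in SD and 8.53, 8.51 and 8.53 in LL. The WT SD arrays thus stood apart from the other 9, the *pifq* SD arrays overlapped those of WT LL, and *pifq* LL was lowest without overlap. The rise in WT SD over WT LL was 3.44 ± 0.12 (log2 FC ± SE, adjusted p = 9.02e-07), or 10.9-fold, the 4th largest increase of all 38113 probe sets. In *pifq* SD versus WT SD *XTH15* fell by 3.31 ± 0.12 on the log2 scale (adjusted p = 1.32e-06), or 9.95-fold, the 7th largest decrease.

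*XTH8*, another enzyme of the family, gave 9.14, 9.01 and 9.05 in WT SD and 7.92, 8.09 and 8.11 in WT LL. In *pifq* it gave 7.81, 7.74 and 7.86 in SD and 7.81, 7.67 and 7.78 in LL. All 6 *pifq* arrays lay below the lowest WT LL array, and the light regimes overlapped within *pifq*. *XTH8* rose by 1.03 ± 0.10 in WT SD over WT LL (adjusted p = 0.000186, 2.04-fold) and fell by 1.26 ± 0.10 in *pifq* SD versus WT SD (adjusted p = 0.000214, 2.40-fold).

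*XTH30* gave 9.49, 9.39 and 9.54 in WT SD and 8.34, 8.16 and 8.15 in WT LL. In *pifq* it gave 8.46, 8.47 and 8.80 in SD and 8.14, 8.23 and 8.39 in LL. Here *pifq* SD lay between WT SD and both LL groups, with no array in common with either, and the 2 LL groups overlapped. *XTH30* rose by 1.26 ± 0.13 in WT SD (adjusted p = 0.000217, 2.39-fold) and fell by 0.90 ± 0.13 in *pifq* SD versus WT SD (adjusted p = 0.00663, 1.86-fold).

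*XTH33*, whose product differs from most of the family in carrying a predicted membrane anchor, had the largest standard errors of the 6. It gave 7.48, 6.95 and 7.31 in WT SD and 5.92, 5.76 and 6.15 in WT LL. In *pifq* it gave 6.20, 5.43 and 6.47 in SD and 6.10, 5.78 and 5.68 in LL. WT SD was above all other arrays, and the other 3 groups overlapped throughout, with an SD of 0.54 among the *pifq* SD arrays. *XTH33* rose by 1.30 ± 0.26 in WT SD (adjusted p = 0.0097, 2.47-fold) and fell by 1.21 ± 0.26 in *pifq* SD versus WT SD (adjusted p = 0.0468, 2.32-fold). The second call was lost when any 1 of 11 of the 12 arrays was left out, all but *pifq* SD replicate 3. In those fits the log2 FC lay between -1.36 and -0.91 (adjusted p 0.0586 to 0.189).

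*CSLC4*, which makes the glucan backbone, gave 10.79, 10.40 and 10.44 in WT SD and 9.78, 9.63 and 9.81 in WT LL. In *pifq* it gave 9.39, 9.09 and 9.09 in SD and 9.60, 9.52 and 9.32 in LL. WT SD was highest, WT LL next, and the *pifq* groups lowest and overlapping, with *pifq* SD the lower of the pair in its mean (9.19 ± 0.17 against 9.48 ± 0.15, SD, n = 3). *CSLC4* rose by 0.80 ± 0.14 in WT SD (adjusted p = 0.00597, 1.75-fold) and fell by 1.35 ± 0.14 in *pifq* SD versus WT SD (adjusted p = 0.00121, 2.55-fold).

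*XTH32* moved in the opposite direction to the genes above, whereas its relatives *XTH6* and *XTH7*, described below, also fell in WT SD. It belongs to the subgroup of the family in which characterised enzymes hydrolyse xyloglucan rather than rejoin it. It gave 5.87, 6.26 and 5.55 in WT SD and 8.04, 8.07 and 7.94 in WT LL. In *pifq* it gave 6.77, 6.82 and 6.59 in SD and 7.59, 7.75 and 7.57 in LL. No 2 groups overlapped, and the order from high to low was WT LL, *pifq* LL, *pifq* SD and WT SD. *XTH32* fell by 2.12 ± 0.17 in WT SD versus WT LL (adjusted p = 4.75e-05, 4.36-fold) and rose by 0.83 ± 0.17 in *pifq* SD versus WT SD (adjusted p = 0.0366, 1.78-fold). The rise was no longer called after median centring of the arrays (0.80, adjusted p = 0.056) or when any 1 of 11 of the 12 arrays was left out, all but WT SD replicate 2 (adjusted p 0.0546 to 0.135 in those fits).

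A narrower fit on the 6 arrays of WT SD and *pifq* SD alone left 2 of the 6 genes called between the genotypes, *XTH8* and *XTH15*. The others then had adjusted p of 0.118 (*XTH30*), 0.267 (*XTH32*), 0.267 (*XTH33*) and 0.0638 (*CSLC4*). Over all probe sets the same change of fit took the calls from 565 to 66. Markers of other cell types moved in this comparison too. *PDF1*, of the shoot epidermis, fell by 1.29 (log2, adjusted p = 0.00428) and the guard cell channel gene *KAT1* by 1.11 (adjusted p = 0.00207), 2 of the 6 markers measured. Both, like *CAB3*, had a named probe set only through the study's list of genes called on these arrays, so marker calls are not independent evidence. *RCA*, *EXPA7* and *FAMA*, named by the platform annotation, were not called in any comparison. In *pifq* SD versus WT SD *FAMA*, the other guard cell marker, had the opposite sign (0.40, adjusted p = 0.151). So had the mesophyll genes *CAB3* (0.32, adjusted p = 0.563) and *RCA* (0.19, adjusted p = 0.52), whereas *EXPA7* was at -0.14 (adjusted p = 0.809). The mean log2 signal of the 6 markers was 9.12 to 9.19 on the WT SD arrays and 8.78 to 9.0 on the *pifq* SD arrays, against 9.26 to 9.39 in WT LL and 9.14 to 9.25 in *pifq* LL. Their part in the change of the xyloglucan genes was not tested. In WT SD versus WT LL the mesophyll gene *CAB3* fell by 0.85 (adjusted p = 0.00979), the 1 marker of 6 called there. The other mesophyll gene, *RCA*, was at -0.42 (adjusted p = 0.0203), under the fold limit. *EXPA7* was at 0.32 (adjusted p = 0.146) and *PDF1* at 0.03 (adjusted p = 0.963). The guard cell pair differed in sign there as well, with *KAT1* at 0.51 (adjusted p = 0.0352) and *FAMA* at -0.57 (adjusted p = 0.0104), both under the fold limit.

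**Figure D2:**
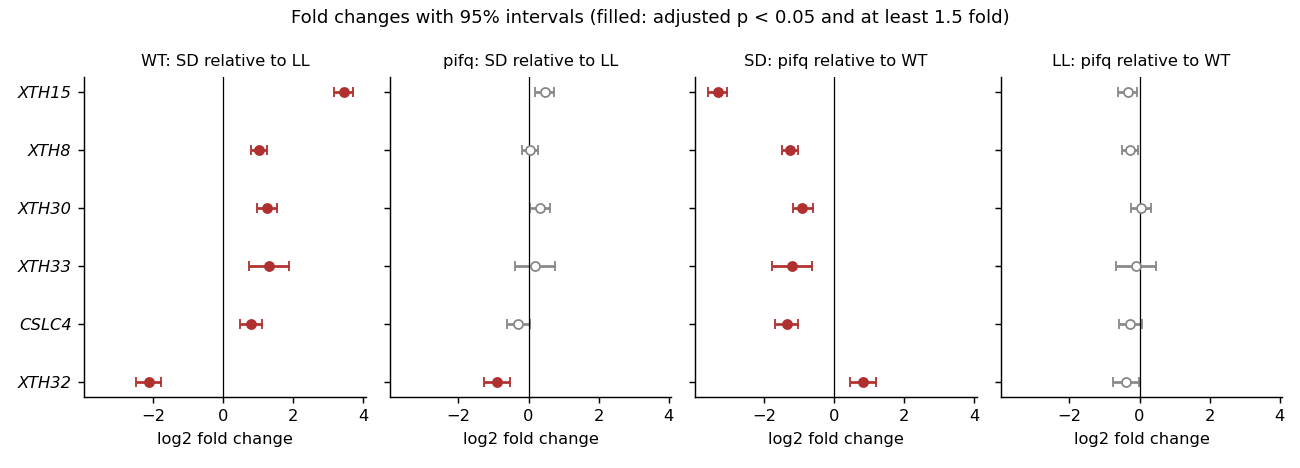
Points are log2 fold changes of the 6 genes (rows) in 4 comparisons (panels), with 95% intervals; filled points passed the adjusted p and fold limits. All 6 points are filled for SD relative to LL in WT and for *pifq* relative to WT in SD, whereas only *XTH32* (-0.91) is filled for SD relative to LL in *pifq* and none in LL.

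Within *pifq*, SD and LL differed by a called change in 1 of the 6 genes. *XTH32* was lower in *pifq* SD than in *pifq* LL by 0.91 ± 0.17 on the log2 scale (adjusted p = 0.0128, 1.88-fold), in a comparison that called 3.67% of all probe sets (1.79% higher, 1.88% lower). This call was lost without *pifq* SD replicate 3 (adjusted p = 0.0558), without *pifq* LL replicate 2 (adjusted p = 0.0545) and in a fit on the 6 *pifq* arrays alone (adjusted p = 0.0651). The epidermis marker *PDF1* fell in the same comparison by 0.98 (adjusted p = 0.0105), 1 of the 6 markers called there, and its part was not tested. *XTH15* differed by 0.46 (95% interval 0.19 to 0.73, adjusted p = 0.0643) and *XTH30* by 0.32 (0.04 to 0.61, adjusted p = 0.214), both with every *pifq* SD array above every *pifq* LL array, as in 10.6% of all probe sets (11.3% were wholly below, 21.9% in all). The values were 0.04 (-0.18 to 0.27) for *XTH8*, 0.18 (-0.39 to 0.75) for *XTH33* and -0.29 (-0.61 to 0.03) for *CSLC4*, none of them called. The interval for *XTH8* reached 0.27 at most, against its WT change of 1.03, whereas that for *XTH33* extended past the 1.5-fold limit of 0.585 on the log2 scale. At an unadjusted p under 0.05 stood 3 of the 6 genes (*XTH15*, *XTH30* and *XTH32*) and 6866 of the 38113 probe sets.

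The difference between the genotypes in their response to SD was tested as an interaction, which called 0.152% of all probe sets (0.136% with the WT response higher, 0.0157% with it lower). For *XTH15* the WT response exceeded that of *pifq* by 2.98 ± 0.17 (adjusted p = 0.000196), the 4th largest such difference on the array. For *XTH8* it did so by 0.98 ± 0.14 (adjusted p = 0.038), and this call was lost whichever 1 of the 12 arrays was left out (adjusted p 0.0759 to 0.126). The other differences were 1.12 ± 0.36 for *XTH33*, 1.09 ± 0.20 for *CSLC4*, 0.93 ± 0.18 for *XTH30* and -1.21 ± 0.23 for *XTH32*, with adjusted p of 0.482, 0.092, 0.104 and 0.104. So 2 of the 6 genes were called, and all 6 had an unadjusted p under 0.05, as did 2507 of all probe sets. With the variance prior following signal level, or among the brighter probe sets alone, *XTH30*, *XTH32* and *CSLC4* were called as well, making 5 of 6.

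In continuous light the genotypes differed by at most 0.38 on the log2 scale in these genes. None of the 6 genes was called by limma in *pifq* LL versus WT LL, where 0.0184% of all probe sets were (0.0105% higher, 0.00787% lower), and 3 had an unadjusted p under 0.05, as did 2378 of all probe sets. These were *XTH8* at -0.28 (95% interval -0.51 to -0.05), *XTH15* at -0.33 (-0.61 to -0.06) and *XTH32* at -0.38 (-0.75 to -0.01). Their adjusted p were 0.715, 0.721 and 0.784. In these 3 genes and in *CSLC4* (-0.26, interval -0.58 to 0.06) every *pifq* LL array lay below every WT LL array, which was so for 5.58% of all probe sets, with 7.75% the other way round and 13.3% in all. *XTH30* differed by 0.04 (-0.25 to 0.32) and *XTH33* by -0.09 (-0.66 to 0.48). For *XTH32* the LL value, which was not called, had the opposite sign to the called 0.83 in SD.

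The size of the *pifq* deficit in SD can be set against the size of the night response in WT. This PIFq contribution, the difference of WT SD from *pifq* SD as a share of that of WT SD from WT LL on the log2 scale, is a description without a test, since both differences contain the WT SD arrays. It was 168% ± 21.3 for *CSLC4*, 123% ± 6.05 for *XTH8*, 96.3% ± 5.26 for *XTH15*, 92.9% ± 41.3 for *XTH33*, 71.5% ± 15.6 for *XTH30* and 39.2% ± 5.75 for *XTH32* (SD over the 3 *pifq* SD arrays). *CSLC4* and *XTH8* thus fell in *pifq* SD below their WT LL level in each of 3 arrays, *XTH15* and *XTH33* came to about that level, *XTH30* stayed above it, and *XTH32*, the repressed gene, regained the smallest share of its loss. On linear signals the order was the same for these 6, with 142%, 115%, 99.1%, 95.5%, 79.7% and 23.3%.

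The night response that *pifq* kept uses the same *pifq* SD arrays and the same WT difference, so it is no separate evidence and is given as a description. The *pifq* difference of SD from LL, as a share of the WT difference, was 42.9% for *XTH32* (38.4 to 49.4 over the 3 *pifq* SD arrays), 25.6% for *XTH30* (16.1 to 43.6), 14.0% for *XTH33* (-32.1 to 47.5), 13.4% for *XTH15* (8.34 to 18.8) and 4.35% for *XTH8* (-2.03 to 10). It was -35.9% for *CSLC4* (-48.3 to -11.3), where all 3 arrays of *pifq* SD lay below the *pifq* LL mean. These ranges hold the *pifq* LL mean and the WT difference fixed, so they are no intervals of uncertainty. Those of *XTH33* and *XTH8* cross 0, and the *XTH33* range spans those of *XTH8*, *XTH15* and *XTH30*. The 95% intervals of the *pifq* difference given above include 0 for *XTH8*, *XTH33* and *CSLC4*, so for these genes the share could not be told from none. Only *XTH32* was called in that comparison.

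The rest of the xyloglucan genes with a named probe set changed in both directions or were not called. Of the 33 XTH genes 15 were measured, 10 of them beside the 5 above. Of 14 genes of backbone synthesis and side chain addition 6 were measured, with *CSLC4*, and of 3 trimming glycosidase genes 2. Of these 17 further genes, 1 rose and 3 fell in WT SD versus WT LL (median log2 FC -0.05, with 6.59% of all probe sets called), and 1 rose and 2 fell in *pifq* SD versus WT SD (median -0.14, with 1.48% called). Within *pifq* 2 were lower in SD than in LL, against 3.67% of all probe sets called. In *pifq* LL versus WT LL and in the interaction limma called 0 of 17, with 0 and 7 at an unadjusted p under 0.05, against 0.0184% and 0.152% of all probe sets called. All genes called here were found through the study's list of regulated genes. The 12 named by the platform annotation (8 XTH genes and *CSLC5*, *CSLC6*, *CSLC8* and *CSLC12*) gave 0 calls in each of the 5 tests, with 1, 4, 7, 0 and 3 at an unadjusted p under 0.05 in the order WT SD over WT LL, *pifq* SD over WT SD, *pifq* SD over *pifq* LL, *pifq* LL over WT LL and interaction. Over all 38113 probe sets the corresponding numbers were 7524, 4083, 6866, 2378 and 2507. Among the brighter probe sets alone *XTH16*, named by the platform, was called in *pifq* SD versus WT SD (-0.64, adjusted p = 0.0167).

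In the XTH family *XTH6* and *XTH7* joined *XTH32* among the genes with less RNA after the night. *XTH6* gave 6.30, 6.61 and 6.49 in WT SD, 7.80, 7.80 and 7.77 in WT LL, 7.05, 7.10 and 6.99 in *pifq* SD and 7.82, 7.79 and 7.82 in *pifq* LL. All 6 SD arrays lay below all 6 LL arrays, with WT SD lowest. *XTH6* fell by 1.33 ± 0.10 in WT SD versus WT LL (adjusted p = 4.8e-05) and by 0.77 ± 0.10 in *pifq* SD versus *pifq* LL (adjusted p = 0.00293), and its 0.58 in *pifq* SD versus WT SD (adjusted p = 0.0207, 1.49-fold) lay just under the fold limit, which it passed without WT SD replicate 2 (0.65, adjusted p = 0.027). *XTH7* gave 10.32, 10.37 and 10.67 in WT SD, 11.38, 11.34 and 11.38 in WT LL, 11.34, 11.02 and 11.36 in *pifq* SD and 11.32, 11.41 and 11.25 in *pifq* LL. The *XTH7* level was thus low in WT SD alone. It fell by 0.91 ± 0.13 in WT SD versus WT LL (adjusted p = 0.00173), rose by 0.78 ± 0.13 in *pifq* SD versus WT SD (adjusted p = 0.016) and differed by -0.09 between *pifq* SD and *pifq* LL (adjusted p = 0.801). The rise was not called without WT SD replicate 1 or 2 or without *pifq* SD replicate 1 or 3 (0.72 to 0.74, adjusted p 0.0637 to 0.0842). The other 8 XTH genes lay between -0.42 and 0.37 in WT SD versus WT LL and between -0.64 (*XTH16*, adjusted p = 0.066) and 0.52 (*XTH27*, adjusted p = 0.0979) in *pifq* SD versus WT SD.

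Among the synthesis genes *CSLC4* was the one of 5 measured CSLC genes that was called, and whether it differed from the other 4 was not tested. The other 4 lay between -0.16 and 0.05 in WT SD versus WT LL (smallest adjusted p = 0.584) and between -0.59 and 0.01 in *pifq* SD versus WT SD (smallest adjusted p = 0.245). *XLT2*, a galactosyltransferase of the xyloglucan side chains, gave 6.07, 5.75 and 5.77 in WT SD, 7.02, 7.01 and 6.85 in WT LL, 6.18, 5.45 and 5.88 in *pifq* SD and 7.0, 7.06 and 6.87 in *pifq* LL. The 2 SD groups overlapped and so did the 2 LL groups. *XLT2* fell after the night by 1.09 ± 0.18 in WT (adjusted p = 0.00329) and by 1.14 ± 0.18 in *pifq* (adjusted p = 0.0059), and differed by -0.03 (95% interval -0.42 to 0.36) between the genotypes in SD.

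Both trimming enzymes measured had less RNA in *pifq* SD than in WT SD, in a comparison that called 1.48% of all probe sets (0.847% lower). Both were matched to a probe set only through the study's list of regulated genes, so these calls are not independent evidence. *BGAL10*, a beta-galactosidase of xyloglucan, gave 7.87, 7.66 and 7.61 in WT SD, 6.70, 6.65 and 6.76 in WT LL, 6.58, 6.41 and 6.71 in *pifq* SD and 6.83, 6.54 and 6.34 in *pifq* LL. Only WT SD stood apart. *BGAL10* rose by 1.01 ± 0.14 in WT SD over WT LL (adjusted p = 0.0016), fell by 1.14 ± 0.14 in *pifq* SD versus WT SD (adjusted p = 0.00336) and showed a difference of 0.00 (95% interval -0.32 to 0.32) between SD and LL in *pifq*. *XYL1*, the alpha-xylosidase of the wall, gave 10.05, 9.59 and 9.82 in WT SD, 9.26, 9.25 and 9.28 in WT LL, 8.93, 8.47 and 8.57 in *pifq* SD and 9.23, 9.21 and 9.06 in *pifq* LL. It was highest in WT SD and lowest in *pifq* SD, with no overlap of either with the LL arrays. *XYL1* fell by 1.16 ± 0.15 in *pifq* SD versus WT SD (adjusted p = 0.00376), while its 0.56 in WT SD over WT LL (adjusted p = 0.0463, 1.47-fold) lay under the fold limit and its -0.51 in *pifq* SD versus *pifq* LL had an adjusted p of 0.0924. The first was called without WT SD replicate 2 (0.67, adjusted p = 0.036) and after median centring (0.60, adjusted p = 0.0336), and without *pifq* SD replicate 1 the second (-0.65, adjusted p = 0.0427). In fits on the arrays compared alone, the *pifq* SD versus WT SD calls of *XTH7*, *BGAL10* and *XYL1* were lost (adjusted p = 0.205, 0.0668 and 0.116), and so were the calls within *pifq* of *XTH6* and *XLT2* (adjusted p = 0.0718 and 0.095).

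**Figure D3:**
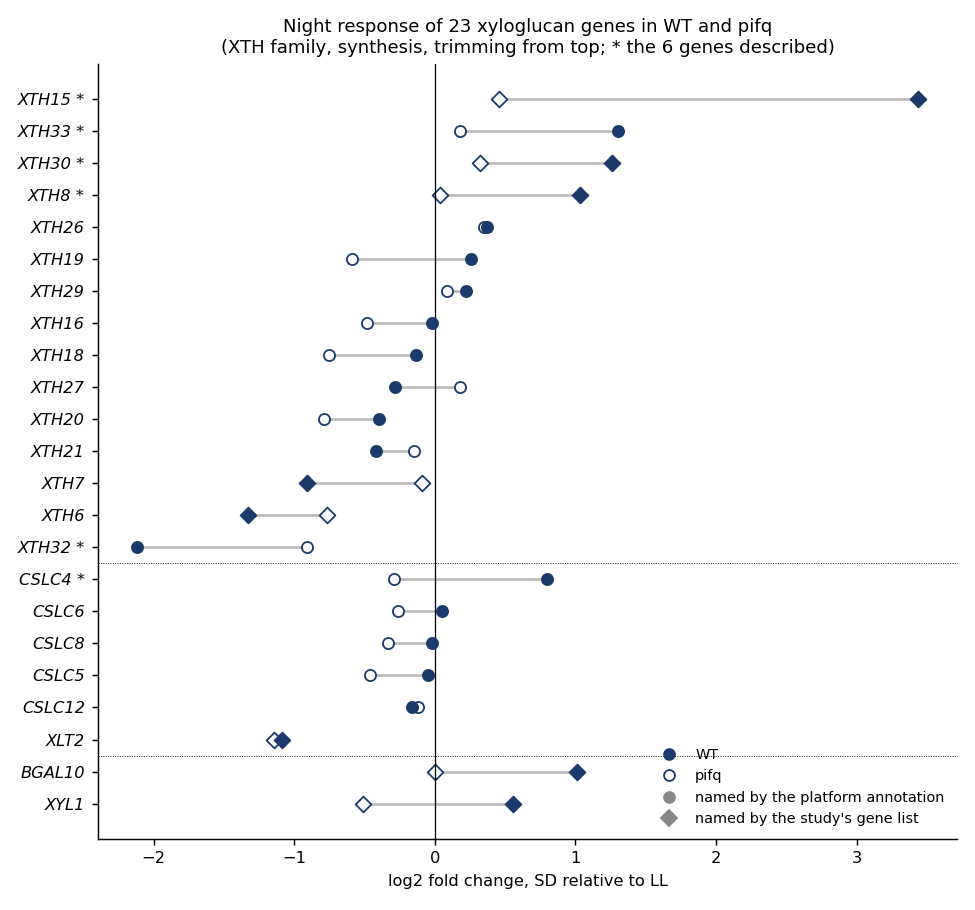
Each row is 1 of 23 xyloglucan genes, with its log2 fold change of SD relative to LL in WT (filled) and in *pifq* (open) joined by a line; diamonds mark genes found through the study's list of regulated genes. The WT and *pifq* points lie far apart for *XTH15* (3.44 and 0.46) and almost together for *XLT2* (-1.09 and -1.14).

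The 6 genes followed one another to different degrees over the 12 arrays, which fall in 4 groups and so give a description only. *XTH15* was closest to *XTH8* (Pearson r = 0.971) and *XTH30* (0.951). *CSLC4* was closest to *XTH8* (0.931) and less so to *XTH30* (0.730). *XTH32* ran opposite to all of them, from -0.925 with *XTH30* to -0.520 with *CSLC4*.

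Among 1179 singly named genes whose group means spanned at least 1 log2 unit, those with the pattern most like each gene were picked by Pearson r over the same 12 arrays. For *XTH15* they were *ST2A* (0.992), a sulfotransferase gene of jasmonate metabolism, *AGP4* (0.989), which encodes an arabinogalactan protein, and AT2G30930 (0.989). For *XTH8* they were *ENODL8* (0.981), *RTFL21* (0.978) and AT3G05900 (0.978), and for *XTH30* AT3G57800 (0.987), AT3G05150 (0.980) and *ST2A* again (0.972). *CSLC4* had as its nearest the auxin-responsive genes *SAUR19* (0.986) and *IAA29* (0.984) and the brassinosteroid-responsive transcription factor gene *BEE1* (0.976). *XTH33* was nearest to *LYK3* (0.984), which encodes a receptor-like kinase, AT4G16670 (0.960) and *HB-2* (0.950), a homeodomain transcription factor gene used as a shade marker. *XTH32* was nearest to AT4G18220, to *PIF7*, a PIF gene that *pifq* leaves intact, and to *NEET*, each at 0.977. Several of these genes could be named only through the study's list of regulated genes, and 19790 probe sets without a gene name did not enter the ranking.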

How the data were processed

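Biotin-labelled RNA from 12 whole-seedling samples was hybridised to AraGene 1.0 ST arrays, 1 per sample. The authors summarised the probes with RMA, and the deposited table holds its log2 output. The RMA version was not given in the sources used. The study's own calls came from an error-weighted analysis of variance in Rosetta Resolver, which could not be rerun on these values. Of 38408 probe sets, 98 controls and 197 dimmer probe sets of genes with several were left out. A locus was assigned from the platform annotation (16714 probe sets with 1 gene) or else from the locus column of the study's gene list (1039), of which the first rows were held and whose columns of expression values and fold changes were not used. That list holds genes called on these arrays. RefSeq (TAIR10.1) symbols were used for names only. Probe sequences were not used here, so cross-hybridisation among XTH genes was not checked; none of the genes described shares all its values with another probe set.

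One linear model with 4 group means was fitted to all 38113 probe sets with limma 3.58.1 (R 4.3.3), without background correction or scaling beyond that deposited. The 4 group contrasts and the interaction were tested with eBayes and adjusted by Benjamini-Hochberg over all probe sets. Python 3.11.15, pandas 2.3.3 and matplotlib 3.10.9 were used for counts and plots. The fit was tested on simulated data for WT SD versus WT LL only, with changes added to the WT SD arrays. With 3 arrays per group, precision is limited. The p-values set a difference against the spread between these samples, pooled over the 4 groups and moderated across all probe sets. No scan date or batch is labelled. Levels of different probe sets were not compared with each other.

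The 6 genes and all lists were chosen with earlier results of these data known. Named beside the 6 were *XTH6* and *XTH7*, up to 4 called genes of each list per comparison with the smallest adjusted p, the 3 genes most like each of the 6, and the mutated PIF genes. *XTH16* and *XTH27* were added after their values were seen, as the ends of a range. Alternatives were median centring, a second quantile normalization, a variance prior with trend and robust fitting, brighter probe sets alone, only the arrays compared, other fold limits, all probe sets kept, a replicate block and leaving out each array.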

Additional observations from a re-analysis of the deposited data

Results flagged for a closer look

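In 2 of the 6 genes the response to SD differed between WT and *pifq* by the interaction test across all probe sets. That test called 0.152% of all probe sets (0.136% with the WT response higher, 0.0157% with it lower). *XTH15* and *XTH8* were matched to a probe set only through the study's list of regulated genes, so these calls are not independent evidence. The *XTH15* response was larger in WT by 2.98 on the log2 scale (3.44 in WT, 0.46 in *pifq*), with all 3 WT SD arrays above all 9 others. The *XTH8* response was larger in WT by 0.98 (1.03 in WT, 0.04 in *pifq*), again with all 3 WT SD arrays above all 9 others, but its adjusted p of 0.038 rose above the limit whichever 1 array was left out.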

How the results depend on the processing

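The 6 genes gave 624 values under alternative settings. Of these 567 kept direction and side of the threshold, 48 lost the call, 6 gained it and 3 turned sign; the cause was not tested. The 3 turned values were uncalled ones near 0: without 1 array *XTH33* ranged from -0.04 to 0.48 in *pifq* SD versus *pifq* LL and from -0.21 to 0.01 in *pifq* LL versus WT LL, where *XTH30* ranged from -0.03 to 0.10. Other values that turned were *XLT2* between genotypes in SD (-0.20 to 0.16) and, within *pifq*, *BGAL10* (-0.12 to 0.13, and 0.03 after median centring) and *XTH7* (-0.15 to 0.02). Leaving out 1 array gave 6 of the 6 genes called in WT SD versus WT LL, 4 to 5 in *pifq* SD versus WT SD, 0 to 1 in *pifq* SD versus *pifq* LL, 0 in LL and 1 in the interaction. For the 17 further genes the counts were 4 to 5, 2 to 3, 2 to 3, 0 and 0.

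With only the arrays compared, the 6 genes gave 2 calls in *pifq* SD versus WT SD and 0 within *pifq*, and the further genes 0 and 0. This setting is the same fit for the interaction and was not run there. At least 2 fold gave 0 of the 6 and 1 further gene within *pifq*, and 1 of the 6 in the interaction. Trend and robust fitting, and brighter probe sets alone, each gave 5 of the 6 and 3 further genes in the interaction. The replicate block left 1 of the 6 in the interaction, *XTH15*, with *XTH8* lost (adjusted p = 0.0946), and 33 calls over all probe sets. The labels give same-numbered samples a common replicate number and nothing more. Pearson r of their deviations from group means was 0.147, 0.348 and 0.081 between *pifq* SD and WT SD. Differently numbered samples of these groups gave -0.232 to 0.119. In the other comparisons same-numbered samples gave -0.066 to 0.055. At most 2 of 3 pairs of a comparison were above 0.1, and what same-numbered samples share was not tested further. PIFq contributions on linear signals were 115% (*XTH8*), 23.3% (*XTH32*) and 142% (*CSLC4*). Leaving out 1 array gave 119% to 131% for *XTH8*, 93.8% to 99.0% for *XTH15*, 66.7% to 80.5% for *XTH30*, 33.9% to 44.1% for *XTH32*, 69.8% to 110% for *XTH33* and 161% to 181% for *CSLC4*.

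Counts over all probe sets moved by over 1.5 times as follows. WT SD versus WT LL went from 2513 to 940 at 2 fold. *pifq* SD versus WT SD went from 565 to 66 with only the arrays compared, 226 at 2 fold, and 278, 313 and 273 without WT SD replicate 1, WT SD replicate 3 and *pifq* SD replicate 3. *pifq* SD versus *pifq* LL went from 1398 to 189, 480, 834 without *pifq* SD replicate 3 and 912 without *pifq* LL replicate 2. *pifq* LL versus WT LL went from 7 to 18 with trend and with the filter. The interaction went from 58 to 200 with trend, 208 with the filter, and 6 to 26 without 1 array.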
